A study of Mus musculus with 6 samples.

Results

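The Myc, Max and Mxd network was followed in long-term haematopoietic stem cells (LT-HSCs) of mice with a Dcaf8 knockout (KO) and of wild-type (WT) mice. It comprises 10 genes, chosen by symbol: the MYC genes Myc, Mycn and Mycl, their partner Max, the antagonists Mxd1, Mxd3, Mxd4, Mxi1 and Mnt, and the related partner Mlx. All 10 were found among the 55357 gene identifiers, and 9 of them had counts and passed the filter on low counts. LT-HSCs are the most immature blood-forming cells; here they were bone marrow cells gated as Lin-Sca-1+c-Kit+CD150+CD48-. Dcaf8 encodes a protein that brings substrates to CUL4 ubiquitin ligases, and the comparison addressed how its loss impairs HSC function. There were 3 KO and 3 WT libraries, each from 50 cells of young mice by amplification of full-length mRNA. The labels give the genotypes only as Dcaf8 knockout and wild-type, and the sources used here do not state the allele, the tissue of deletion, the strain or the exact age. The design names 3 mice per genotype, matching 1 library per mouse.

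MYC proteins are basic helix-loop-helix leucine zipper factors that pair with MAX, bind the E-box CACGTG and raise the transcription of genes for ribosome production, metabolism and cell cycle entry. The MXD proteins, MXI1 and MNT pair with MAX as well, bind the same sequence and recruit SIN3 and histone deacetylases, so they oppose MYC. MLX pairs with some of these antagonists and with the Mondo proteins MLXIP and MLXIPL, which respond to glucose-derived metabolites. In HSCs, MYC activity is known to favour exit from the niche and differentiation, and MYC and MYCN together are needed for the survival of the stem cells.

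The shared binding sequence is shown first, because it stands in the promoters of network genes themselves. Promoter windows (250 bases before to 50 after the start, RefSeq, GRCm38.p6) were given for 9 of the 10 members, all but Myc. CACGTG, which reads the same on both strands, was found in the windows of 4 of these 9 (44.4%), against 8.09% of the 27025 genes with a window. The 4 sites are printed 5′ to 3′ on the strand of the gene, with CACGTG in capitals and 12 bases on each side. They lie at chr12:76962234-76962263 (Max, minus strand), chr5:34187912-34187941 (Mxd4, minus strand), chr11:74830789-74830818 (Mnt, plus strand) and chr11:101087238-101087267 (Mlx, plus strand). Each motif begins within 250 bases before the start. In Mlx it begins 40 bases before the start, and in Max 3 bases before, so that the Max motif runs across the start.
Max: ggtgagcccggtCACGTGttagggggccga
Mxd4: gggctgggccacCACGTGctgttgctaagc
Mnt: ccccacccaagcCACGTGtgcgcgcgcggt
Mlx: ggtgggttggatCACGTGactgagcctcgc
A match of letters is not evidence of binding, and other factors, such as USF and TFEB, read the same letters.

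Total counts ranged from 14461864 to 22386387 per KO library and from 17790290 to 20881139 per WT library. Dcaf8 stood at 52.6 ± 19.2 CPM in KO and 262 ± 50.7 CPM in WT cells (TMM-normalised CPM, reads per gene scaled to library size, SD, n = 3 per group), with no overlap. Several libraries stood apart. KO replicate 3 was the only library with Xist above 2 CPM (50.8 CPM), and its 4 Y-linked genes were at 0 to 0.181 CPM. Ddx3y, 1 of these, stood at 121 and 56.7 CPM in KO replicates 1 and 2 and at 90.7 to 156 CPM in WT. By these genes KO replicate 3 read as female and each other library as male, so sex was not balanced between genotypes. The part of sex in the differences was not tested. WT replicate 2 held RNA of neutrophil granule genes: the 12 neutrophil markers, of which Mmp8 was at 0 in all libraries, stood at 6503 CPM there, against 233 to 291 CPM in the KO libraries and 124 and 177 CPM in the other WT libraries. Outside WT replicate 2 Prtn3 carried most of the sum (203 to 277 CPM in KO, 112 and 147 CPM in WT), and Ltf, Camp and Lcn2 stood below 2 CPM. WT replicate 3 contained the fewest detected genes, 15244. The list of 10 monocyte and macrophage markers was also highest in WT replicate 2 (989 CPM, against 449 to 639 CPM in KO and 493 and 630 CPM in the other WT libraries). Lyz2 made up 890 CPM of that sum; Lyz2, Ms4a6c, Cd68 and Csf1r had counts in every library, and Ccr2 and Adgre1 were at 0 in all. Erythroid, B cell, T and NK cell, megakaryocyte and committed progenitor lists overlapped between genotypes, with summed ranges of 126 to 219, 82.2 to 102, 73.6 to 178, 855 to 1412 and 342 to 515 CPM in KO, against 126 to 158, 66.1 to 101, 89.7 to 118, 753 to 1122 and 352 to 447 CPM in WT. The HSC list (Kit, Slamf1, Procr, Mecom and others) summed to 3030 to 3648 CPM in KO and 3279 to 3577 CPM in WT libraries.

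Of the network, Myc alone separated the genotypes. Myc (ENSMUSG00000022346, chromosome 15) encodes the MYC protein c-MYC. Its level was 527, 540 and 488 CPM in KO replicates 1 to 3, against 718, 648 and 743 CPM in WT replicates 1 to 3. The highest KO library lay below the lowest WT library, and the KO mean was 73.7% of the WT mean. The log2 fold change was -0.44 ± 0.10 (SE), with a 95% interval of -0.68 to -0.20. Its unadjusted p of 0.00304 ranked 55 among 14592 genes. After Benjamini-Hochberg adjustment it did not pass the edgeR test (adjusted p = 0.739), nor limma-voom (adjusted p = 0.882), whereas DESeq2 called it (adjusted p = 0.00206). The exact permutation test of 3 against 3 libraries gave p = 0.1, the smallest it can give (two-sided, n = 3 per group).

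The background for these calls was as follows. By edgeR 0 of 14592 genes (0%) passed at an adjusted p under 0.05, with 849 (5.82%) at an unadjusted p under 0.05; limma-voom called 0 genes. DESeq2 called 154 of 16490 (0.934%), with 0.606% higher and 0.327% lower in KO. The targeted gene Dcaf8 had a log2 fold change of -2.28 and ranked 1 by unadjusted p in edgeR. It still did not pass edgeR (adjusted p = 0.739) or limma-voom (adjusted p = 0.882), whereas DESeq2 called it (adjusted p = 1.83e-09). A gene that did not pass edgeR here can therefore still differ between genotypes. Genotypes did not overlap for 10.3% of the genes edgeR tested, with every KO library higher for 5.91% and lower for 4.43%. Among the members, 1 of 9 (Myc) did not overlap, a share near that background. Of the 9 fold changes 6 were above and 3 below 0, beside 50.9% above and 49.1% below 0 for all genes. With 1 library left out, DESeq2 still called Myc each time (adjusted p from 0.000201 to 0.0249 over 6 fits). In those smaller fits it called 288 to 789 genes in all, more than with all 6 libraries. The split of its calls turned with the library left out: 84 were higher and 255 lower without KO replicate 1, against 622 higher and 167 lower without WT replicate 1.

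Libraries of 1 genotype lay close together for Myc. The within-genotype SD of Myc was 0.09 on the log2 CPM scale, against a median of 0.25 for the 2878 genes tested at a mean of at least 100 CPM. That set was not matched to the level of Myc, so the part of level in this difference was not tested. Leaving out any 1 library moved its edgeR log2 fold change only between -0.50 and -0.40. It was -0.50 without WT replicate 2, the library with neutrophil RNA, and -0.40 without KO replicate 3, the library with high Xist. In bulk RNA of sorted cells, fewer cells that express a gene and less RNA per cell cannot be told apart.

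**Figure D1:**
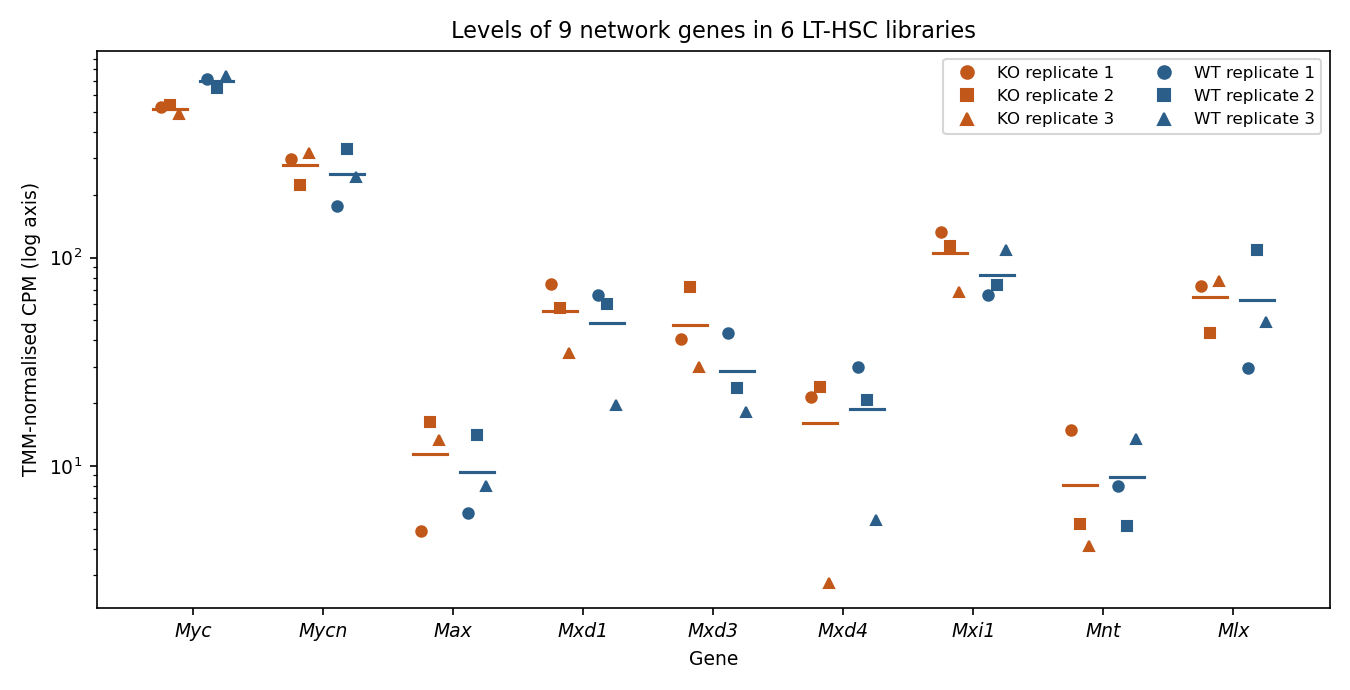
TMM-normalised CPM (log axis) of the 9 counted network genes in each library, KO left and WT right of each gene name, with the genotype mean as a bar. For Myc the KO libraries lie at 488 to 540 CPM, below the WT libraries at 648 to 743 CPM; the other 8 genes overlap between genotypes.

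Mycn (ENSMUSG00000037169), the paralogue that can stand in for Myc in HSCs, stood at 298, 223 and 316 CPM in KO, against 176, 333 and 244 CPM in WT replicates 1 to 3. The genotypes overlapped fully, because WT held both the lowest and the highest library. The log2 fold change was 0.16 with a 95% interval of -0.42 to 0.73. Mycl, the third MYC gene, had 0 counts in all 6 libraries, and 3 counts would have been 0.132 to 0.209 CPM in KO and 0.145 to 0.169 CPM in WT libraries. Pvt1, the long noncoding RNA gene next to Myc, was looked up outside the lists and stood at 4.82, 2.51 and 0.814 CPM in KO, against 1.24, 6.98 and 5.99 CPM in WT, with overlap.

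Max (ENSMUSG00000059436), the obligate partner of MYC, was among the least counted members. It had 111, 233 and 295 counts in KO, against 106, 290 and 158 counts in WT replicates 1 to 3, or 4.87, 16.2 and 13.3 CPM against 5.97, 14.1 and 8.02 CPM. Replicate 1 was the lowest of each genotype, and the genotypes overlapped (log2 fold change 0.19, 95% interval -1.23 to 1.61). The interval spans more than a doubling in either direction, so nothing finer was detectable for Max.

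The antagonists, all counted at lower levels, varied far more between libraries than Myc did. Mxi1 (ENSMUSG00000025025), which was the most counted of them, stood at 133, 114 and 68.4 CPM in KO, against 65.8, 74.0 and 108 CPM in WT. KO replicates 1 and 2 lay above every WT library and KO replicate 3 among them, with a log2 fold change of 0.33 (95% interval -0.41 to 1.08). Without KO replicate 3 or WT replicate 3 it was 0.58, and without KO replicate 1 it was 0.09.

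Mxd3 (ENSMUSG00000021485), an antagonist known for expression in cycling cells, stood at 40.6, 72.0 and 29.8 CPM in KO, against 43.6, 23.6 and 18.1 CPM in WT. Its log2 fold change was 0.69, with a 95% interval of -0.42 to 1.80. It was 0.33 without KO replicate 2 and 1.11 without WT replicate 1. KO replicate 2 was the highest library and WT replicate 3 the lowest. The mitotic kinase genes Plk1 and Aurka of the turnover list, picked after their values were seen, had their extremes in the same libraries. Plk1 stood at 84.9, 120 and 93.7 CPM in KO, against 111, 26.7 and 0.0507 CPM in WT. Aurka stood at 50.5, 92.3 and 74.0 CPM in KO, against 80.3, 35.3 and 0.0507 CPM in WT. The part of cell cycle state in the Mxd3 values was not tested.

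Mxd1 (ENSMUSG00000001156), which is induced as blood cells differentiate, stood at 75, 57.4 and 34.6 CPM in KO, against 66.3, 59.6 and 19.7 CPM in WT. Mxd4 (ENSMUSG00000037235) stood at 21.35, 23.9 and 2.76 CPM in KO, against 29.8, 20.75 and 5.48 CPM in WT. For both genes replicate 3 was the lowest of each genotype, and for Mxd4 the highest library was 10.8-fold above the lowest. Their log2 fold changes were 0.21 (95% interval -0.91 to 1.33) and -0.28 (95% interval -2.09 to 1.54).

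Mnt (ENSMUSG00000000282), the most widely expressed antagonist in other tissues, stood at 14.95, 5.29 and 4.12 CPM in KO, against 7.99, 5.14 and 13.5 CPM in WT. KO replicate 1 and WT replicate 3 were the high libraries. Its log2 fold change of -0.05 (95% interval -1.61 to 1.51) was -0.95 without KO replicate 1 and 0.40 without WT replicate 3. Of the 5 antagonists 0 passed in edgeR (adjusted p from 0.935 to 1.00) or in DESeq2 (adjusted p from 0.810 to 1.00).

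**Figure D2:**
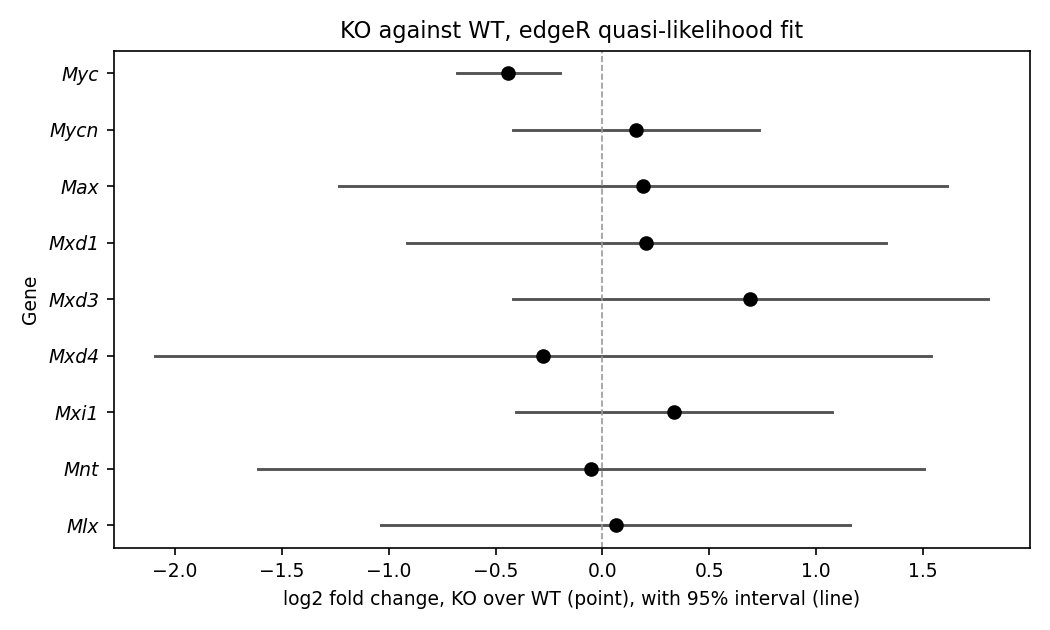
Log2 fold change of each counted network gene, KO over WT (points), with its 95% interval (lines) from the edgeR quasi-likelihood fit. The interval of Myc, -0.68 to -0.20, lies below 0, and those of the other 8 genes include 0.

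Mlx (ENSMUSG00000017801), the partner of the Mondo proteins, stood at 73.2, 43.6 and 76.8 CPM in KO, against 29.7, 109 and 48.9 CPM in WT. WT held the lowest and the highest library, and the log2 fold change was 0.06 (95% interval -1.04 to 1.16). In the GRCm38 annotation 385 exonic bases of Mlx overlap Psmc3ip on the opposite strand, 514 of Mxd4 overlap the gene model Gm42846, 194 of Mxi1 overlap Gm10197 and 105 of Mxd3 overlap Prelid1. Without a stated strand setting, reads from these stretches could not be assigned to either gene.

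Leaving out single libraries turned the sign of 6 of the 9 log2 fold changes. These were the fold changes of Mycn, Max, Mxd1, Mxd4, Mnt and Mlx, while those of Myc, Mxd3 and Mxi1 kept theirs. No direction is therefore given for those 6 genes.

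**Figure D3:**
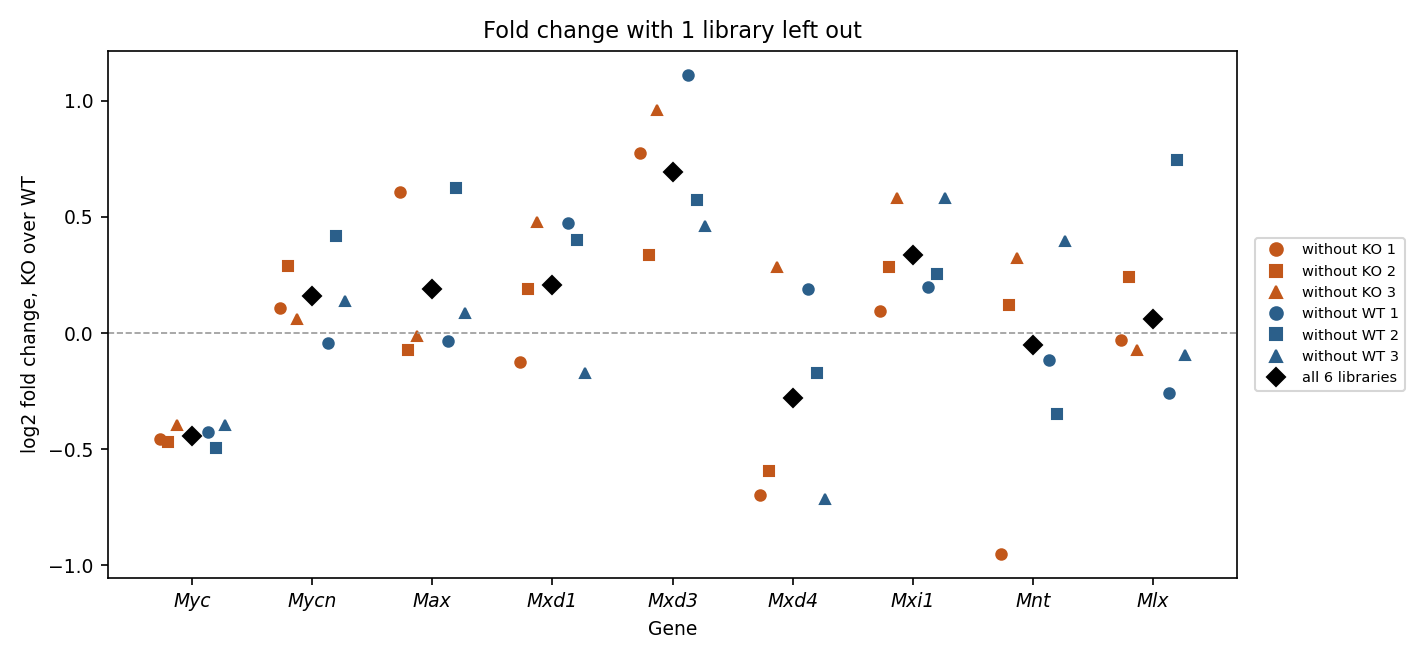
Log2 fold change, KO over WT, of each counted network gene with all 6 libraries (diamonds) and with 1 library left out (KO libraries left, WT libraries right of each gene name). The values of Myc stay between -0.50 and -0.40, whereas those of Mnt span -0.95 to 0.40.

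Levels of different genes were compared per kb of exon, in the order of the KO means; Mxd3 and Mxi1 stood the other way round in WT. Myc stood at 191 CPM per kb in KO and 259 CPM per kb in WT cells, and Mycn at 84.8 and 76.2 CPM per kb in KO and WT cells. Mlx followed with 32.3 CPM per kb in KO and 31.2 in WT, then Mxd3 (20.04 in KO, 12.0 in WT), Mxi1 (15.4 in KO, 12.1 in WT) and Mxd1 (7.87 in KO, 6.86 in WT). At the low end stood Max (3.19 in KO, 2.60 in WT), Mxd4 (1.89 in KO, 2.201 in WT) and Mnt (1.75 in KO, 1.92 in WT). Myc lay above every other member in each of the 6 libraries. Of neighbours in this order, only the pair of Myc and Mycn did not overlap in their library values; Mycn and Mlx overlapped narrowly across libraries (lowest Mycn 53.4, highest Mlx 54.4 CPM per kb), and each later pair overlapped. Max lay below Myc, Mycn and Mlx on this scale in every library. Its exon union of 3598 bases is longer than its longest transcript of 1942 bases, which lowers its level per kb, and whether reads of Max were lost to ambiguous features was not tested.

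Summed over genes, the MYC arm separated the genotypes and the antagonist arm did not. Mycn alone overlapped and Mycl had no counts, so the separation of the MYC arm restates that of Myc. Myc and Mycn together stood at 284, 266 and 276 CPM per kb in KO, against 318, 339 and 348 CPM per kb in WT, without overlap. Myc made up 68.2%, 74.6% and 65.2% of that sum in KO, against 83.2%, 70.2% and 78.7% in WT. The 5 antagonists together stood at 53.0, 59.2 and 28.7 CPM per kb in KO, against 42.6, 32.8 and 29.8 CPM per kb in WT. The leading antagonist differed between libraries: it was Mxi1 in KO replicate 1 and WT replicates 2 and 3 (36.7%, 33.1% and 53.1% of the antagonist sum), and Mxd3 in KO replicates 2 and 3 and WT replicate 1 (51.4%, 43.8% and 43.1%).

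The log2 ratio of the MYC sum to the antagonist sum was 2.43, 2.17 and 3.26 in KO, against 2.90, 3.37 and 3.54 in WT libraries. KO replicates 1 and 2 lay below every WT library, and KO replicate 3 lay between WT replicates 1 and 2. The mean was 2.62 ± 0.57 in KO and 3.27 ± 0.33 in WT (SD, n = 3 per group), a difference of -0.65. It was -0.97 without KO replicate 3, the library with high Xist, and -0.43 without KO replicate 2. With Myc alone on top the ratio was 1.87, 1.75 and 2.65 in KO, against 2.63, 2.86 and 3.19 in WT. No test was made of these ratios, since they are scores over genes chosen with results known.

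**Figure D4:**
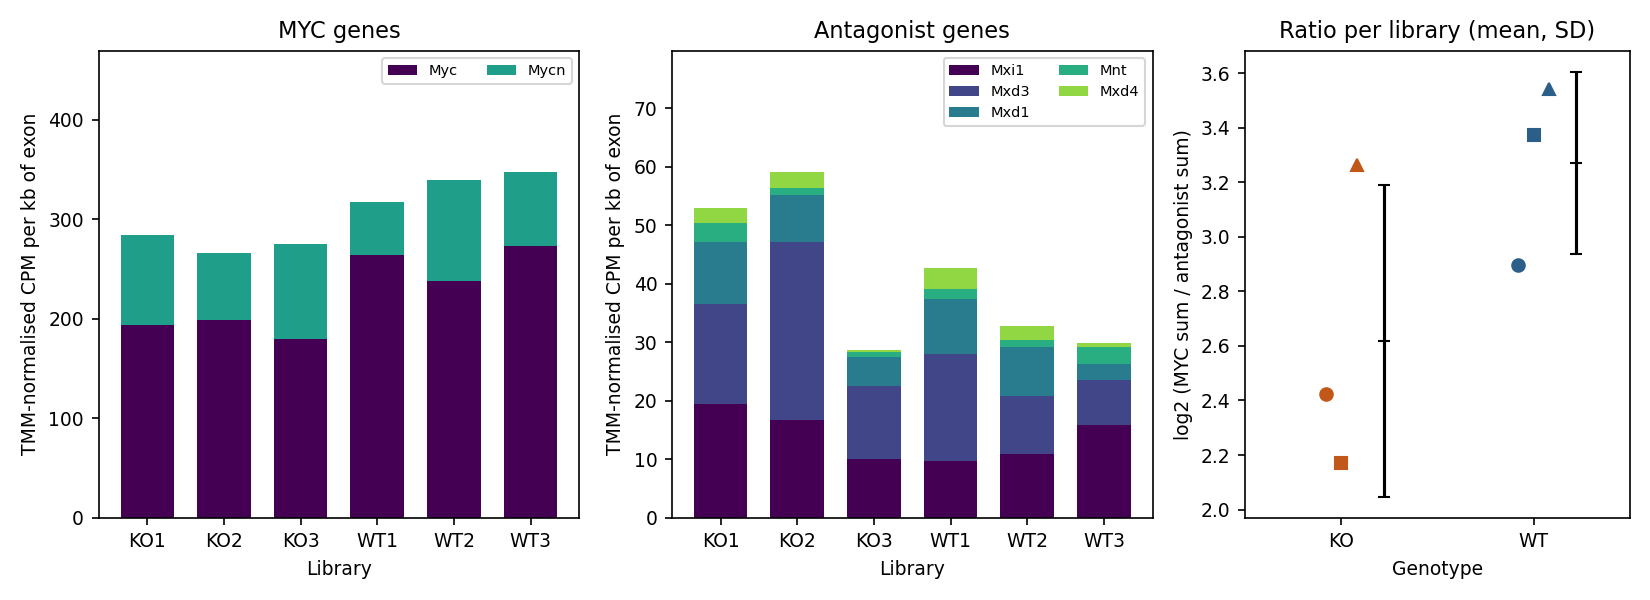
Stacked TMM-normalised CPM per kb of exon of the MYC genes (left) and the antagonists (middle) per library, and the log2 ratio of the sums (right; points are libraries, with circles, squares and triangles for replicates 1, 2 and 3, and the bar gives mean and SD). The MYC sums are 266 to 284 in KO and 318 to 348 in WT, while the ratio of KO replicate 3, 3.26, lies among the WT libraries.

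The genes whose levels followed Myc most closely over the 6 libraries were named as a description. Among 8292 genes with a mean of at least 20 CPM, 59 had a Pearson r above 0.9 with Myc on the log2 CPM scale, led by Gm37376 (r = 0.976), Fam129b (0.970), Stard7 (0.967) and Mettl9 (0.967). Gm37376 is a gene model of chromosome 19 whose 453 exonic bases all overlap the noncoding RNA gene Malat1 on the opposite strand, so its reads could not be told from those of Malat1. Stard7 encodes a lipid transfer protein and Mettl9 a methyltransferase. Stard7 stood at 228, 226 and 191 CPM in KO, against 291, 249.8 and 289 CPM in WT. For Mxi1 the closest were Efcc1 (0.986), Usp5 (0.978), Tmem189 (0.974) and Rhbdf1 (0.970). All correlations share the same libraries and their depth, and genotype moves with Myc.

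Corepressors and relatives of the network formed the extended list, with 8 of 9 genes tested. Of these 2 were higher and 6 lower in KO, with a median log2 fold change of -0.12, and 0 passed; over all genes tested, 50.9% were higher and the median was 0.01. The median of the list was -0.05 without WT replicate 1, -0.07 without KO replicate 1 and -0.19 without WT replicate 3. Ncor1, a corepressor that recruits histone deacetylase 3, stood at 187 ± 16.3 CPM in KO and 262 ± 63.9 CPM in WT (log2 fold change -0.49, edgeR adjusted p = 0.851). Zbtb17, which encodes MIZ1, the partner through which MYC represses genes, stood at 46.8 ± 12.8 CPM in KO and 29.6 ± 2.60 CPM in WT, without overlap (log2 fold change 0.69, edgeR adjusted p = 0.869). The SIN3 scaffolds Sin3a and Sin3b had log2 fold changes of -0.37 and 0.13, the deacetylases Hdac1 and Hdac2 of -0.03 and -0.12, and the MAX partner Mga of -0.48. Mlxip, which encodes MondoA, stood at 93.8 ± 4.99 CPM in KO and 102 ± 16.4 CPM in WT (SD, n = 3 per group), and Mlxipl had 0 counts in all libraries.

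MYC coactivators were evenly split, with 6 of 12 higher and 6 lower, 0 passing and a median log2 fold change of -0.01. Without KO replicate 3 the median was -0.10, with 5 higher and 7 lower, and without WT replicate 3 it was 0.0015. Ccnt1, the cyclin T1 subunit of the elongation factor P-TEFb, stood at 101, 69.7 and 70.8 CPM in KO, against 125, 126 and 171 CPM in WT. Every KO library lay below every WT library, with a log2 fold change of -0.79 ± 0.24 (SE; edgeR adjusted p = 0.744, DESeq2 adjusted p = 0.135). Its kinase partner Cdk9 stood at 95.3, 108 and 116 CPM in KO, against 100, 149 and 161 CPM in WT, with overlap. The acetyltransferase gene Kat5 (-0.60) and the helicase gene Ruvbl2 (0.44), both of the TIP60 complex, had the next smallest p.

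Regulators of MYC protein stability had 10 of 18 higher and 8 lower, 0 passing and a median log2 fold change of 0.22. That median was 0.08 without WT replicate 2, 0.09 without WT replicate 1 and 0.32 at most, without KO replicate 3. Fbxo32, an F-box gene best known from muscle wasting, stood at 45.2, 35.6 and 31.9 CPM in KO, against 19.0, 4.07 and 13.2 CPM in WT (log2 fold change 1.68 ± 0.49, SE; edgeR adjusted p = 0.739). Fbxl14, another F-box gene, had 11.6, 6.96 and 13.2 CPM in KO, against 18.35, 20.8 and 21.9 CPM in WT, without overlap. Skp2, the F-box gene that couples MYC turnover to its activity, stood at 34.2 ± 17.1 CPM in KO and 20.1 ± 1.77 CPM in WT (SD, n = 3 per group). Fbxw7, the main ligase receptor for phosphorylated MYC in HSCs, stood at 10.8, 12.4 and 9.91 CPM in KO, against 15.2, 2.71 and 5.53 CPM in WT, with overlap.

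Factors that act on the Myc gene in blood cells had 9 of 16 tested higher and 7 lower, 0 passing and a median of 0.19. The median was 0.38 without WT replicate 2, 0.08 without WT replicate 3, 0.09 without KO replicate 3 and 0.06 with limma-voom and sample weights. E2f1, a cell cycle entry factor, stood at 106, 141 and 139 CPM in KO, against 55.85, 88.7 and 85.7 CPM in WT. Ctcf, the architectural factor, stood at 198, 139 and 180 CPM in KO, against 136, 95.7 and 125 CPM in WT, and Runx1 at 226 ± 12.98 CPM in KO and 183 ± 35.2 CPM in WT (SD, n = 3 per group). For these 3 of the 16 genes every KO library lay above every WT library, as it did for 5.91% of all genes tested. They were named for the lowest unadjusted p of the list, a choice that favours such separation. None passed edgeR's test (adjusted p = 0.769, 0.837 and 0.911).

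Of the targets that MYC induces, 0 passed. Of 33 nucleolar and ribosome biogenesis genes, 10 were higher and 23 lower in KO, with a median log2 fold change of -0.15 and 0 at an unadjusted p under 0.05. Their summed level was 5321, 6119 and 7478 CPM in KO, against 5472, 7320 and 7218 CPM in WT, so the genotypes overlapped and replicate 1 was the lowest of each. Pes1 and Tcof1, with roles in large-subunit assembly and rDNA transcription, had log2 fold changes of 0.58 and 0.70, and Wdr43, of the small-subunit processome, had -0.31. Without KO replicate 1 the list's median was -0.00030, and without KO replicate 3 it was -0.34.

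Of 31 metabolic and growth targets, 14 were higher and 17 lower, with a median of -0.07, a summed level of 7383 to 9427 CPM in KO and 7234 to 9682 CPM in WT, and 0 passing. Hk2, the inducible hexokinase, stood at 26.0, 10.1 and 19.4 CPM in KO, against 44.8, 27.2 and 57.3 CPM in WT, without overlap (log2 fold change -1.14 ± 0.45, SE; edgeR adjusted p = 0.841). Tert, the telomerase subunit gene, stood at 14.6, 9.12 and 0 CPM in KO, against 26.5, 11.2 and 21.8 CPM in WT, and Slc19a1, the folate carrier gene, at 133 ± 39.6 CPM in KO and 99.1 ± 12.2 CPM in WT (SD, n = 3 per group). The split of this list was 12 higher and 19 lower with other library scalings. Its median was -0.20 without WT replicate 1, with 7 higher and 24 lower, and 0.04 without WT replicate 2, with 16 higher and 15 lower.

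CACGTG stood in the windows of 7 of 27 nucleolar targets with a window (25.9%), 8 of 27 metabolic targets (29.6%) and 3 of 8 Mondo-MLX targets (37.5%). The share over all genes with a window was 8.09%. It was 18.2% for coactivators, 13.3% for the MYC-repressed list, 12.5% for the extended network, 11.8% for Myc gene regulators and 6.67% for the turnover list. These lists are short, and no test was made of the shares. Cdk4, which encodes a G1 kinase and is a textbook MYC target, held 4 sites within 1 window at chr10:127063351-127063380, chr10:127063405-127063434, chr10:127063425-127063454 and chr10:127063512-127063541 (plus strand). They are shown because Cdk4 combines several sites with a precisely measured level, with the distance of the motif to the start in bases.
Cdk4, 172 bases before: atggcagccagtCACGTGccacacagcgta
Cdk4, 118 bases before: aagtcaaggggtCACGTGggatagcaacag
Cdk4, 98 bases before: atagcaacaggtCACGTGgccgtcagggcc
Cdk4, 11 bases before: aagggtgaagatCACGTGtccagaacgtcc
Cdk4 stood at 513, 598 and 585 CPM in KO, against 533, 569 and 537 CPM in WT, with a log2 fold change of 0.05 (95% interval -0.20 to 0.29). Over both induced lists, the 15 genes with CACGTG had 7 higher and 8 lower values and a median log2 fold change of -0.04, and the 39 with a window but no CACGTG had 12 higher and 27 lower values and a median of -0.15. This split was made after the values were seen, and no test was made of it.

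Genes that MYC represses or that mark quiescence had 6 of 15 tested higher and 9 lower, with a median log2 fold change of -0.31 and 0 passing. Klf2, a quiescence factor, stood at 116, 57.3 and 92.2 CPM in KO, against 212, 155 and 156 CPM in WT, without overlap. The CDK inhibitor genes Cdkn1a, Cdkn1b and Cdkn1c had log2 fold changes of -0.31, -0.46 and -0.42. The genotypes overlapped for each of these genes. Their intervals all included 0 (-1.03 to 0.41, -1.43 to 0.51 and -1.05 to 0.20), so no direction is given for them. Cdkn1a and Cdkn1b were added after their values were seen. Ndrg1, whose name records its repression by N-MYC, had 72.6, 219 and 201 CPM in KO, against 91.5, 33.0 and 41.15 CPM in WT, where KO replicate 1 overlapped WT replicate 1 (log2 fold change 1.57 ± 0.52, SE; edgeR adjusted p = 0.769). The median of this list was -0.01 without KO replicate 3 and -0.07 without WT replicate 1.

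Mondo-MLX targets had 6 of 9 tested higher and 3 lower, with a median of 0.18 and 0 passing. Without KO replicate 1 the median was -0.08, with 3 higher and 6 lower, so no direction is given for this list. Txnip, the glucose-responsive inhibitor of thioredoxin and the defining target of this arm, stood at 631, 407 and 433 CPM in KO, against 482, 391 and 434 CPM in WT. Its relative Arrdc4 stood at 113, 55.5 and 54.9 CPM in KO, against 55.1, 50.1 and 69.9 CPM in WT. For both genes KO replicate 1 was the high library and the rest overlapped. The Arrdc4 window held a site at chr7:68749414-68749443 (minus strand).
Arrdc4: aaaggtcctgtgCACGTGcactatggtgtc
Mknk2 and Per1 had log2 fold changes of 0.52 and -0.57.

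**Figure D5:**
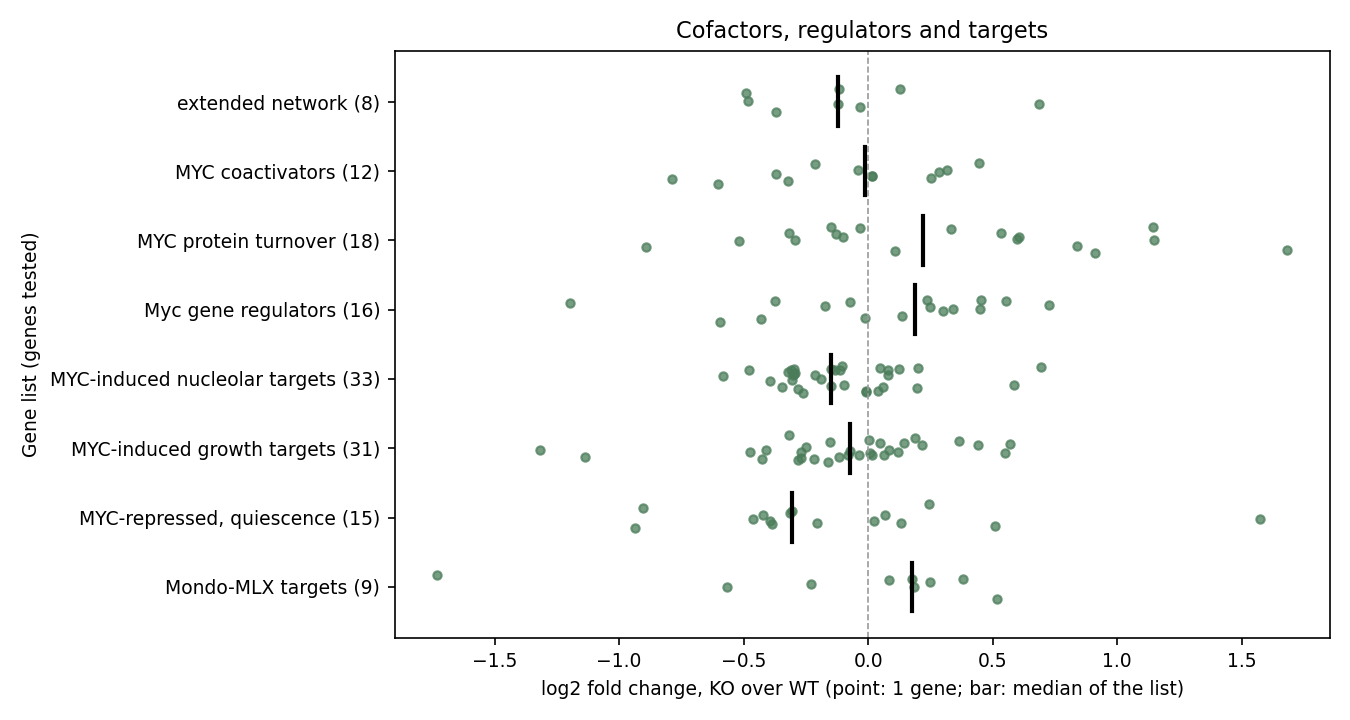
Log2 fold change, KO over WT, of every tested gene in 8 lists of cofactors, regulators and targets (points; vertical position within a row carries no value), with the median of each list as a bar. Medians lie between -0.31 and 0.22, and 0 genes passed edgeR's test after adjustment.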

How the data were processed

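Raw read counts per gene were taken from the authors' deposited table, holding 6 unpooled libraries. Per the submitters' processing notes, Trimmomatic 0.39, HISAT2 2.2.1, Picard 2.26.1, HTSeq 1.99.2, DESeq2 1.38.3 and the mouse build mm39 were used; the sources used here do not state the strand setting, annotation release or handling of duplicates. Of 55357 identifiers 94.1% matched a symbol. Counts were tested with edgeR 4.0.16 (R 4.3.3): TMM scaling, filterByExpr at its defaults (a count of 10, a total of 15), glmQLFit with robust estimation on genotype alone, and Benjamini-Hochberg adjustment over all 14592 genes tested. Levels are TMM-normalised CPM, mean ± SD. Intervals are 95% intervals of the log2 fold change. Exon lengths came from GENCODE M21 (GRCm38), used for length only. DESeq2 1.42.0, limma 3.58.1, other scalings and filters, a replicate block and each library left out were run as alternatives, and the fit was tested on simulated counts. The reads carry no molecular identifiers. The members and lists were chosen with earlier results of these data known; of 239 list entries 1 did not match. Beyond the members, the rule named every tested gene of the extended network and, per other list, the 3 lowest unadjusted p at a mean of 5 CPM or more; Cdk4, Cdk9, Fbxw7, Plk1, Aurka, Cdkn1a, Cdkn1b, Txnip and Pvt1 were added after their values were seen.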

Additional observations from a re-analysis of the deposited data

How the results depend on the processing

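Limits first: there were 3 amplified libraries of 50 cells per genotype. The 95% intervals of Max, Mxd1, Mxd3, Mxd4, Mnt and Mlx were over 2 log2 units wide. All intervals were estimated from these libraries alone. DESeq2 called 154 genes where edgeR called 0. It called Myc at a log2 fold change of -0.45. DESeq2 without 1 library, added after seeing the data, called 339, 315 and 288 genes without KO replicates 1, 2 and 3 and 789, 426 and 397 without WT replicates 1, 2 and 3, and gave Myc -0.466, -0.480 and -0.407 without the KO libraries and -0.51 to -0.40 over all 6; the cause was not tested. In 13 other settings edgeR and limma-voom called 0 genes, and Myc stood at -0.50 to -0.40 (adjusted p from 0.466 to 1.00). Without each library in turn the edgeR log2 fold changes ranged from -0.042 to 0.42 for Mycn, -0.071 to 0.62 for Max, -0.17 to 0.48 for Mxd1, -0.72 to 0.29 for Mxd4, -0.95 to 0.40 for Mnt and -0.26 to 0.74 for Mlx, and Mlx stood at -0.0099 with limma-voom and sample weights. The ratio of arms differed by -0.97 to -0.43. With the replicate number as a replicate block 0 genes were called and Myc stood at -0.44 (adjusted p = 0.877). The labels state no pairing of same-numbered libraries. The deviations of these libraries correlated at 0.06, -0.04 and 0.01, and not every library correlated best with its own number. With 3 libraries per genotype these values cannot exclude a shared batch.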
